A study of Homo sapiens with 4 samples.

Results

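The cyclin-dependent kinase inhibitors, the D cyclins and their partner kinases CDK4 and CDK6 were read here as 9 genes out of 19775 with a probe set of their own, through 23 of the 54675 probe sets on the array. They were taken as every probe set that the platform annotation assigns to 1 of 10 gene symbols: CDKN1A, CDKN1B, CDKN2A, CDKN2B, CDKN2C, CCND1, CCND2, CCND3, CDK4 and CDK6. Of these symbols 9 had a probe set; CDKN2C had none in the annotation used and was not analysed here. The series holds 4 Affymetrix arrays from 2 colon cancer cell lines, HT29 and Colo205, both widely used as models with an activating BRAF mutation. The groups were the HT29 parental line, the HT29RC line resistant to PLX4720, the Colo205 parental line and the Colo205RC line resistant to PLX4720, with 1 array each. PLX4720 inhibits the BRAF kinase, and the resistant derivatives had been selected by growth in rising amounts of it, then kept without it for 24 h before RNA was taken. All cultures grew in medium with 10% serum. The design text calls the derivatives clones, and the labels do not say whether each came from 1 cell or how many cultures were pooled.

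D cyclins bind CDK4 or CDK6 and start the phosphorylation of the retinoblastoma protein RB1, which frees E2F transcription factors to drive entry into S phase. INK4 proteins (CDKN2A, CDKN2B and their relatives) bind CDK4 and CDK6 and keep cyclins off, while CIP/KIP proteins (CDKN1A or p21, CDKN1B or p27, and CDKN1C or p57) bind complete cyclin-kinase complexes, that of CDK2 above all. Signalling through RAF, MEK and ERK raises CCND1 transcription and can raise CDKN1A, and p27 is largely controlled through its breakdown by the SKP2 ubiquitin ligase. The arrays report mRNA alone.

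CDKN1B was the gene of the group whose value was lower in both derivatives by more than 2-fold. CDKN1A and CDKN2A differed past 2-fold in HT29 but not in Colo205, in opposite directions. No D cyclin gene differed by 2-fold in either derivative. CDK4 was close to 2-fold lower in resistant Colo205, and CDK6 was lower in resistant HT29 and higher in resistant Colo205. These values are log2 expression values, so a difference of 1 is 2-fold, and each difference given is resistant minus parental unless another is named.

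With 1 array on each side a difference within a line has no test. The scatter between probe sets of the same gene, pooled over 6615 genes with several, had an SD of 0.30 in HT29 and of 0.30 in Colo205, and serves as the yardstick of size. It was taken within the same pair of arrays and holds no variation between cultures, so a difference above it is not thereby settled. Readings under 5.73, the median of all values, were not shown to lie above background. A gene was kept where its highest reading reached that value, which held for all 9 genes with a probe set and for 17 of the 23 probe sets. Over the 13651 kept genes the median difference was -0.01 in HT29 and -0.02 in Colo205, and the array medians lay within 0.05 of each other. All 24 spike-in poly-A controls read lower on each resistant array (median -0.43 for HT29, median -0.72 for Colo205), and their part in the differences below was not tested. The 3 prime minus 5 prime difference of the actin control was 2.77 and 2.40 in the HT29 pair, parental value first. In the Colo205 pair it was 2.88 and 3.13. That of the GAPDH control was 0.53 and 0.44 in HT29 and 0.52 and 0.66 in Colo205. The part of RNA quality was not tested either. Of 12 colon epithelial markers, 10 to 12 reached the filter value on each array, EPCAM between 13.75 and 13.97. CDX2, a defining intestinal transcription factor, lay below it on both parental arrays, and KRT20 did so in both Colo205 cultures. CDH17 lay below it in parental HT29, at 5.30, and read 11.24 in resistant HT29. Of the lists for other cell types, 4 of 7 fibroblast markers, 1 or 2 of 5 endothelial markers and 2 or 3 of 5 measured leukocyte markers reached the filter value on each array. LYZ, which encodes lysozyme and is also made by intestinal epithelium, read between 13.46 and 14.03, and the highest reading of the fibroblast list on any array was 7.45 (COL1A1) and of the endothelial list 7.18 (PECAM1). The defining markers PTPRC of leukocytes, CDH5 of endothelium and COL3A1 of fibroblasts lay below the filter value on all 4 arrays.

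**Figure D1:**
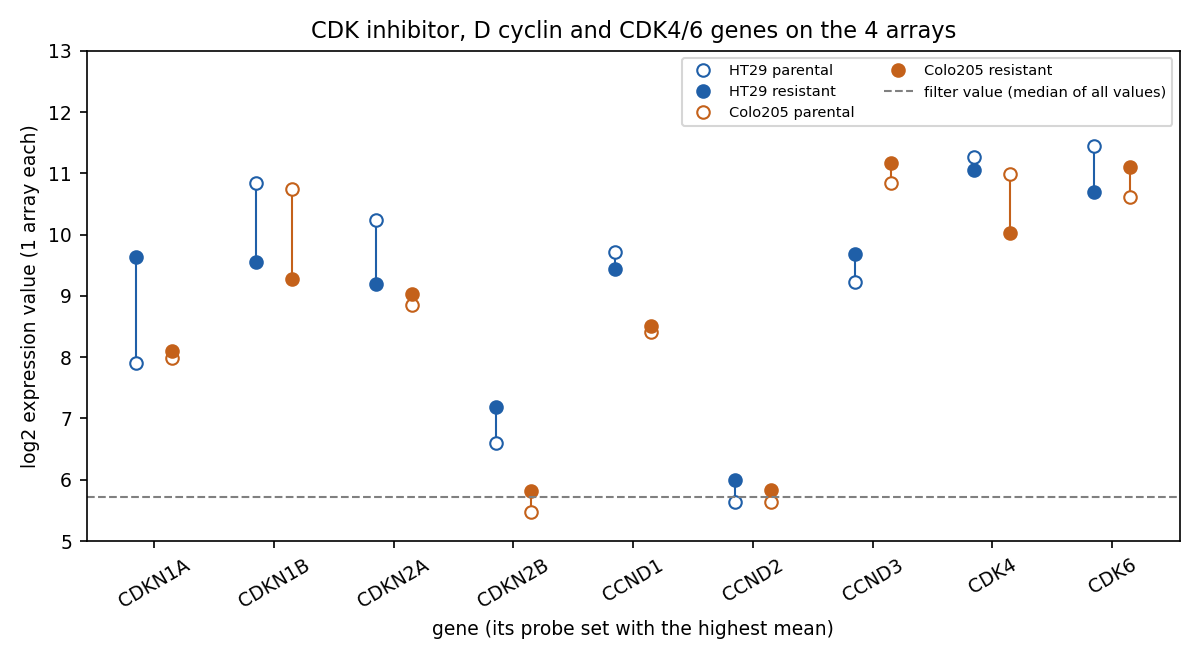
Log2 expression value of each gene on the 4 arrays (1 array per point), with the parental value as an open circle joined to the resistant value as a filled circle; HT29 is blue, Colo205 orange, and the dashed line is the filter value of 5.73. CDKN1B is lower on both resistant arrays, CDKN1A stands at 9.64 on the resistant HT29 array alone, and CCND2 stays near the dashed line.

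By the probe set that stands for each gene, the CIP/KIP inhibitors gave the differences of largest size in each line. CDKN1B, which encodes the CDK2 inhibitor p27, read 10.84 in parental HT29, 9.56 in resistant HT29, 10.75 in parental Colo205 and 9.28 in resistant Colo205. Both resistant arrays lay below both parental arrays, and the parents differed by 0.08. The difference was -1.28 in HT29 and -1.47 in Colo205, or 2.43-fold and 2.77-fold lower. Among all kept genes this put CDKN1B at percentile 0.879 of the HT29 differences and 0.982 of the Colo205 differences, counted from the lowest. Over the 2 pairs the mean difference was -1.38 with a standard error of 0.16 and a 95% interval from -1.83 to -0.92. Its p in limma, with the cell line as a block, was 0.0016, and its Benjamini-Hochberg adjusted p over all genes was 0.706, so that it did not pass the threshold of 0.05. It rests on 1 probe set, 209112_at.

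CDKN1A, which encodes the inhibitor p21, read 7.90 in parental HT29, 9.64 in its derivative, 7.99 in parental Colo205 and 8.10 in its derivative. The resistant HT29 array stood above the other 3, which spanned 0.19. The difference was 1.74 in HT29, or 3.34-fold higher, and 0.11 in Colo205, which is smaller than the scatter between probe sets. Its HT29 difference lay at percentile 99.0 of all kept genes and its Colo205 difference at percentile 68.8. The mean over both lines was 0.93 with an interval from -0.41 to 2.26 and an adjusted p in limma of 0.706. The gene has 1 probe set, 202284_s_at, and whether the lines differ in it was not tested, since each line has 1 pair.

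CDKN1C, the third gene of the family and outside the set chosen above, read 6.36 and 6.48 in the HT29 pair and 6.75 and 8.14 in the Colo205 pair, parental value first. It was 1.39 higher in resistant Colo205 and 0.13 higher in resistant HT29 on the probe set with its highest mean. Over its 4 kept probe sets the Colo205 difference ran from 0.64 to 1.64 and that of HT29 from -0.65 to 0.13. The CIP/KIP gene more than 2-fold higher was thus CDKN1C in resistant Colo205 and CDKN1A in resistant HT29, while CDKN1B was lower in both; none of the 3 passed the adjusted threshold in limma.

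The 250 bases before the annotated starts of the pair that define this contrast, CDKN1B and CDKN1A, are shown from RefSeq on GRCh38.p14, both on the plus strand, at chr12:12717118-12717367 and chr6:36678464-36678713. Capitals mark the GC box GGGCGG and the CCAAT box CCAAT, each searched on both strands.
CDKN1B: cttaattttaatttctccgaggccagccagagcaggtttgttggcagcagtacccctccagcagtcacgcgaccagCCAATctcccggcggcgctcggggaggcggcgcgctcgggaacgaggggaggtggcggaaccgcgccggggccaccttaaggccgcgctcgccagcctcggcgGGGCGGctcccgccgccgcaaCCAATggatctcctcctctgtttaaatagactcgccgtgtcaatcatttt
CDKN1A: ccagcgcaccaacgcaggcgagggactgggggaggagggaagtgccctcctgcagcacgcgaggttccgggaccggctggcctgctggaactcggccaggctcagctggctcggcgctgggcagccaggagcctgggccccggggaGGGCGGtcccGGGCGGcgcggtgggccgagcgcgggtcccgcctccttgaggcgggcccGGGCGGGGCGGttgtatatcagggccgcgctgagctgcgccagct
The CDKN1B stretch holds 1 GC box and 2 CCAAT boxes. The CDKN1A stretch holds 4 GC boxes, the last 2 of which overlap, and no CCAAT box. Of the 35116 start regions of the same length in the table, 42.6% hold a GC box and 32.0% a CCAAT box. The forkhead core GTAAACA, which FOXO factors can bind, was found in neither stretch and in 2.98% of all. A match here is a description of letters and not of a bound site, and no match says only that the letters are not in this window.

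The INK4 genes differed from each other although CDKN2A and CDKN2B lie side by side on chromosome 9. CDKN2A makes the INK4 inhibitor p16 from its downstream start and ARF, which acts on MDM2, from its upstream start. Its probe set 209644_x_at read 10.24 and 9.19 in the HT29 pair and 8.85 and 9.03 in the Colo205 pair. Parental HT29 stood above the other 3 arrays, which spanned 0.34. A second probe set, 207039_at, read 10.00 and 8.43 in the HT29 pair and 8.13 and 7.89 in the Colo205 pair, with parental HT29 again the highest. The HT29 difference was therefore -1.05 on the first and -1.57 on the second, and the Colo205 difference 0.18 and -0.25, so that no direction is settled in Colo205. The third probe set, 211156_at, was below the filter value on all 4 arrays. The suffix _x_at marks probe sets with probes that can match other transcripts, and CDKN2A and CDKN2B are alike in part of their sequence. The adjusted p of CDKN2A in limma was 0.773, with a mean of -0.43.

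The annotation does not say which CDKN2A start a probe set reports. The 250 bases before each start, from RefSeq on GRCh38.p14, are given to show that the 2 transcripts begin behind different sequence. They lie on the minus strand at chr9:21995325-21995574 for the upstream start and chr9:21974858-21975107 for the downstream start. Capitals again mark GC and CCAAT boxes.
CDKN2A upstream start: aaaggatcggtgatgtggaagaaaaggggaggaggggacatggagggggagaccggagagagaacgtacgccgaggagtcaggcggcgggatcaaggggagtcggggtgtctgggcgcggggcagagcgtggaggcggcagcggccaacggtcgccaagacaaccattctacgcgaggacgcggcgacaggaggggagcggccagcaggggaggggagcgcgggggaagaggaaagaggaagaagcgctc
CDKN2A downstream start: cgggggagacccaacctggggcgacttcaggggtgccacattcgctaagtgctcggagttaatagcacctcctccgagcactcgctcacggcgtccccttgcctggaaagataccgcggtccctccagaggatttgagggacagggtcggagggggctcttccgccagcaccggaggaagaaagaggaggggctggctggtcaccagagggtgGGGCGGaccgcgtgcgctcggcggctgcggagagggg
The upstream stretch holds neither box, and the downstream stretch holds 1 GC box. The G plus C content is 66.8% in both.

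CDKN2B, which encodes the inhibitor p15, read higher in both derivatives. Its readings were 6.60 and 7.18 in the HT29 pair and 5.47 and 5.82 in the Colo205 pair, where the parental reading lies below the filter value. Both HT29 arrays stood above both Colo205 arrays. The differences of 0.58 and 0.35 gave a mean of 0.47, with an interval from -0.00 to 0.94, a p of 0.0503 and an adjusted p of 0.706 in limma. Because of that parental reading, the Colo205 difference and the mean have no exact size. The other CDKN2B probe set, below the filter value on all 4 arrays, differed by 0.26 and 0.29. CDKN2D, the INK4 gene for p19 and outside the chosen set, differed by -0.64 in the HT29 pair and by -0.18 in the Colo205 pair.

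**Figure D2:**
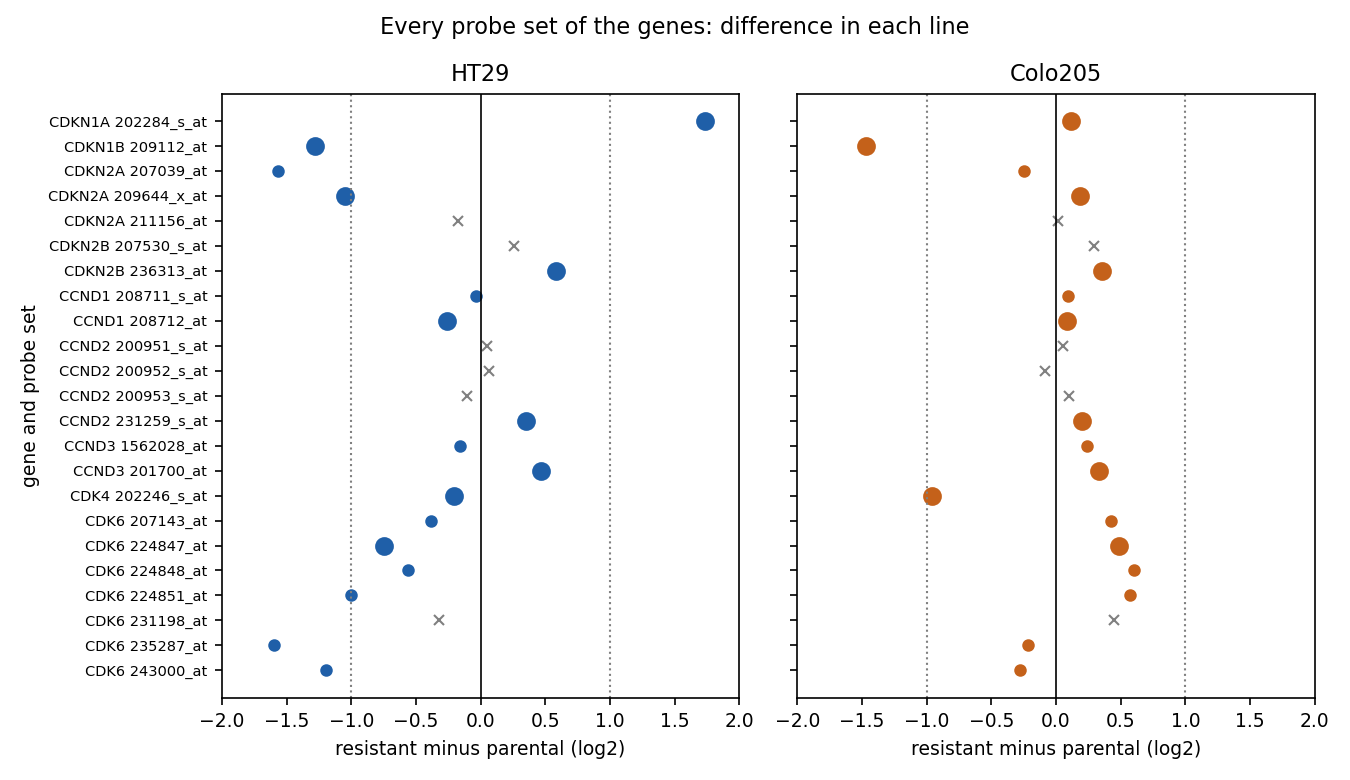
Resistant minus parental difference (log2) of every one of the 23 probe sets, HT29 on the left and Colo205 on the right; large points are the probe sets that stand for their gene, small points others past the filter, grey crosses those below the filter value on all arrays, and dotted lines mark 2-fold. The CDK6 probe sets lie left of 0 in HT29, from -1.60 to -0.32, and on both sides of 0 in Colo205, from -0.28 to 0.60.

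The D cyclin genes stayed within 2-fold of the parental reading in both lines. CCND1, the cyclin whose transcription follows ERK activity, read 9.71 and 9.45 in the HT29 pair and 8.42 and 8.50 in the Colo205 pair. The order of the arrays followed the line and not resistance. The differences were -0.26 and 0.09 on this probe set and -0.04 and 0.09 on the other, all smaller than the scatter SD of 0.30. The interval of the mean, from -0.60 to 0.42, bounds what these pairs can show; the adjusted p was 0.904 in limma.

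CCND3 read 9.22 and 9.68 in the HT29 pair and 10.84 and 11.17 in the Colo205 pair. Each derivative was above its own parent, by 0.46 and 0.33, and both Colo205 arrays were above both HT29 arrays. Its mean difference of 0.40 had an interval from -0.05 to 0.84 and an adjusted p of 0.706 in limma. The other CCND3 probe set, 1562028_at, read between 5.66 and 5.90, with 2 arrays below the filter value, and differed by -0.16 and 0.24. CCND2 read 5.64 and 5.996 in the HT29 pair and 5.64 and 5.84 in the Colo205 pair on its brightest probe set, and its other 3 probe sets lay below the filter value on all arrays. CCND2 was thus near the filter value in all 4 cultures, and its differences of 0.35 and 0.20 have no exact size. It reached that value on the resistant arrays alone, so the direction of both differences followed from the filter.

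CDK4, a kinase partner of the D cyclins, read 11.27 in parental HT29, 11.06 in resistant HT29, 11.00 in parental Colo205 and 10.03 in resistant Colo205. The resistant Colo205 array was the lowest, and the other 3 spanned 0.27. The difference was -0.21 in HT29 and -0.96 in Colo205, or 1.95-fold lower, at percentile 2.75 of the Colo205 differences. The mean of -0.58 had an interval from -1.31 to 0.15 and an adjusted p of 0.706 in limma. With each array centred on its own median the Colo205 difference reached 2-fold.

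CDK6, the other partner kinase, had 6 probe sets past the filter. Its brightest, 224847_at, read 11.44 and 10.69 in the HT29 pair and 10.61 and 11.10 in the Colo205 pair. The parental array was the higher in HT29 and the lower in Colo205, with differences of -0.75 and 0.49. In HT29 all 6 probe sets were lower in the derivative, from -1.60 to -0.38. The -1.60 came from 235287_at, which reached the filter value on the parental HT29 array alone, so its direction in HT29 followed from the filter. Without it the lowest difference was -1.19, on 243000_at. In Colo205, 207143_at, 224848_at and 224851_at were also higher, by 0.43, 0.60 and 0.57, whereas 235287_at and 243000_at were at -0.22 and -0.28. Those 2 read between 4.74 and 6.69, with 3 arrays of the first and 1 of the second below the filter value. The mean over both lines, -0.13, had an interval from -1.18 to 0.92 and an adjusted p of 0.934 in limma.

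**Figure D3:**
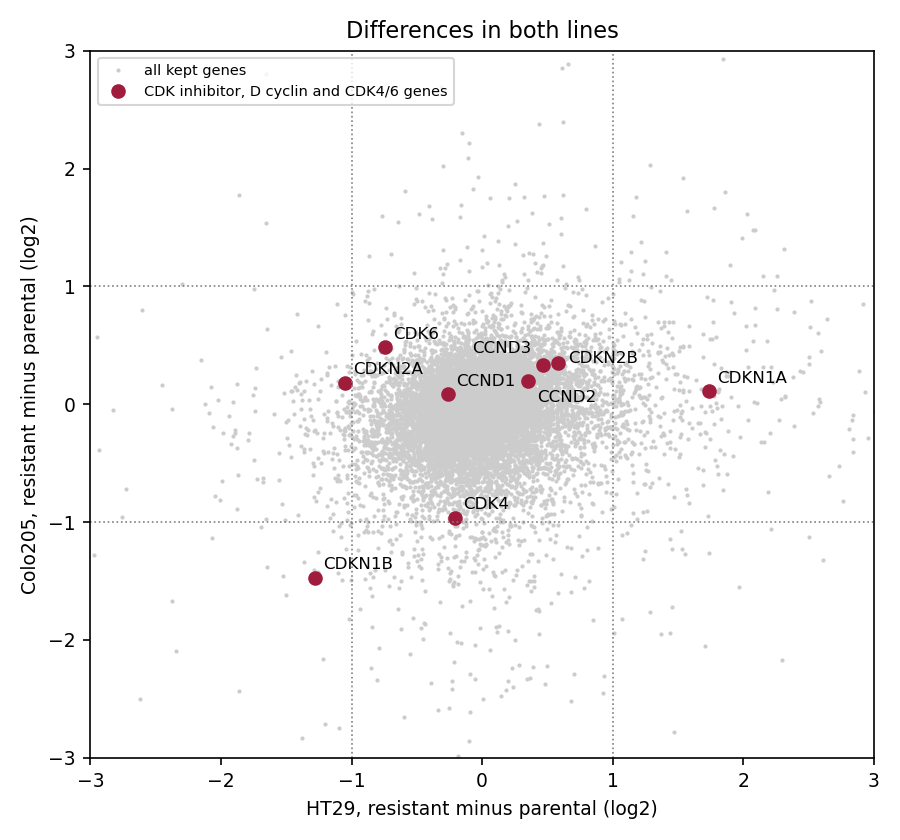
Resistant minus parental difference (log2) in HT29 (x axis) against Colo205 (y axis) for all 13651 kept genes in grey, 60 of which lie outside the axes, and for the 9 genes of the group in red; dotted lines mark 2-fold. CDKN1B is the red point below the 2-fold lines in both lines, and CDKN1A lies far right at a Colo205 difference of 0.11.

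Counted over the 9 measured genes, 1 was 2-fold or more higher in resistant HT29 (CDKN1A) where 3.42% of all kept genes were, and 2 were 2-fold or more lower (CDKN1B and CDKN2A) where 1.72% were. In resistant Colo205, 0 were 2-fold or more higher, against 0.908% of all genes, and 1 was lower (CDKN1B), against 2.51%. CDKN1B was also the 1 gene past 2-fold in the same direction in both lines, as were 32 of all kept genes in the lower direction, or 0.234%. The median over the 9 genes was -0.21 in HT29 and 0.18 in Colo205, beside -0.01 and -0.02 over all kept genes. In signs, 4 of the 9 were higher in both derivatives (CDKN1A, CDKN2B, CCND2 and CCND3), 2 lower in both (CDKN1B and CDK4) and 3 opposite. Over all kept genes 51.4% lay below 0 in HT29, 52.4% in Colo205 and 30.1% in both. The shares higher in both or of opposite sign were not counted, so those counts of the 9 are a description alone. CDKN2B and CCND2 had arrays below the filter value. CCND2 reached it on the resistant arrays alone, so its direction in both lines followed from the filter. Its place among the 4 therefore carries no weight. In limma 0 of the 9 passed the adjusted threshold, as did 0% of all kept genes, and 1 of the 9, CDKN1B, had an unadjusted p under 0.05, against 928 genes or 6.8%.

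The parental lines differed in the group before any resistance was selected. Parental HT29 read 2-fold or more above parental Colo205 in 3 genes, against 7.08% of all kept genes, and below it in 1, against 11.6%. CDKN2A was higher in HT29 by 1.39, or 2.62-fold, and its second probe set by 1.87. CCND1 was higher by 1.29, with 1.06 on its other probe set, and CDKN2B by 1.13, against a Colo205 reading below the filter value; its other probe set, below that value on all arrays, differed by -0.07. CCND3 went the other way, with a difference of -1.62, or 3.06-fold lower in HT29, while its dim second probe set differed by 0.18. With the median of each gene's probe sets, 3 genes in all were 2-fold or more apart between the parents, in place of 4. CDKN1A, CDKN1B and CCND2 differed by -0.08, 0.08 and 0.00 between the parents. The differences between the lines were not the same among the derivatives: for CDKN2A it was 0.16, for CCND1 0.94, for CDK6 -0.40 in place of 0.83, and for CDKN1A 1.54. For CCND3 it was -1.48 and for CDKN2B 1.36. None of these values has a test.

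Each gene was also set beside the 10 kept genes on either side of it on its chromosome, since gains and losses of chromosome segments shift neighbours together. CDKN1B lay below all 20 of its chromosome 12 neighbours in both lines; they had a median of -0.09 and a lowest value of -1.05 in HT29, and a median of -0.39 and a lowest value of -1.06 in Colo205. CDK4, elsewhere on chromosome 12, lay below all 20 of its neighbours in Colo205, which had a median of -0.44 and a lowest value of -0.90. CCND2, on the same chromosome, had neighbours with a median of -0.36 in Colo205. It was itself at 0.20, a direction that followed from the filter. Neighbour medians were thus below 0 at all 3 chromosome 12 genes in Colo205, and copy number, which was not measured, was not tested.

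CDKN1A lay above all 20 of its chromosome 6 neighbours in HT29, whose median was 0.04 and highest value 1.03. The neighbours of CDK6 on chromosome 7 had a median of -0.45 in HT29, beside its own -0.75, and of -0.17 in Colo205, beside its own 0.49. The neighbours of CDKN2A had medians of 0.02 and 0.03. CCND3 stood with its surroundings in the parental comparison: its 20 chromosome 6 neighbours had a median HT29 minus Colo205 difference of -1.72, and its own was -1.62. Its differences in the derivatives, 0.46 and 0.33, lay above neighbour medians of -0.02 and -0.10.

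**Figure D4:**
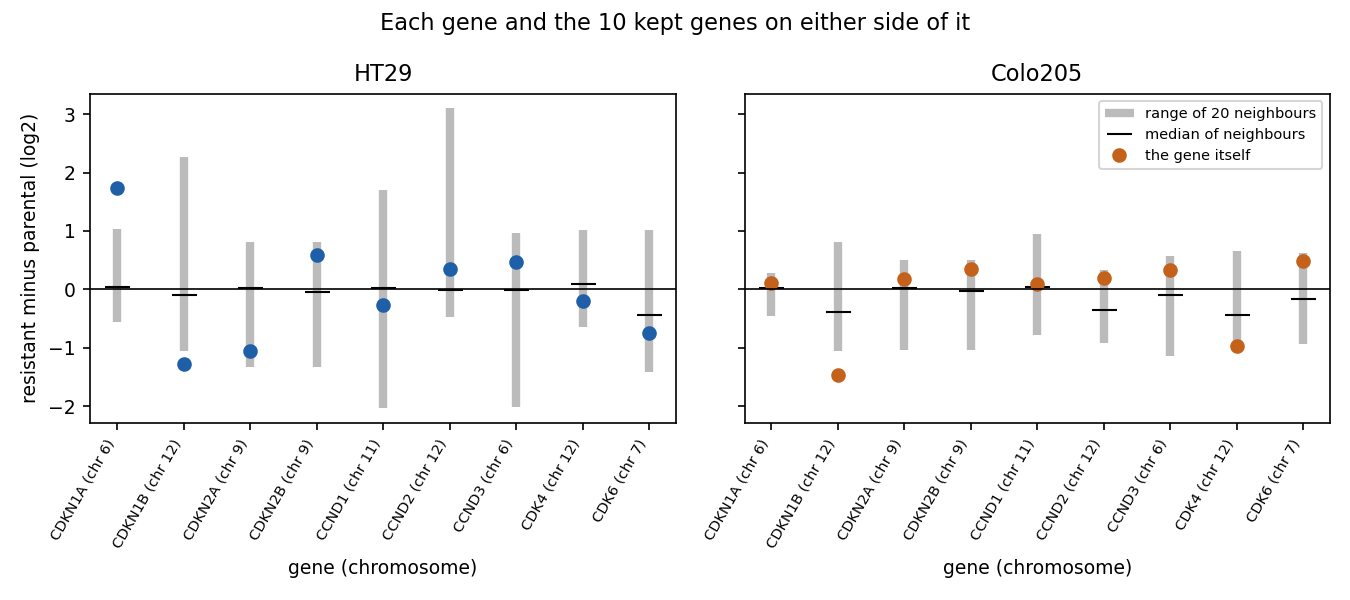
Resistant minus parental difference (log2) of each gene (coloured point) beside the range (grey bar) and median (black dash) of its 20 kept chromosome neighbours, HT29 on the left and Colo205 on the right. CDKN1B lies under the whole bar in both panels, CDKN1A above it in HT29, and CDK4 under it in Colo205.

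The rest of the pathway was read from gene lists. Over all kept genes 3.42% were 2-fold or more higher and 1.72% lower in HT29, and 0.908% higher and 2.51% lower in Colo205. In lists this short, 0 genes at 2-fold is near those shares. Of the RB1 family and the E2F factors, 13 of 13 genes were measured and 0 were 2-fold apart in either line; the median was -0.00 for HT29 and 0.08 for Colo205. RBL2, an RB1 relative that holds quiescent cells out of the cycle, had the lowest mean: it read 10.32 and 9.33 in the HT29 pair and 10.37 and 10.38 in the Colo205 pair. E2F2, an activating E2F, had the highest, with 7.99 and 8.48 in HT29 and 8.68 and 9.33 in Colo205. Of the 9 genes around CDK2, 0 were 2-fold apart, with medians of 0.11 and -0.09. CCNE1, the cyclin that activates CDK2, differed by 0.76 in HT29 and by 0.19 in Colo205, and CDK2 itself by 0.08 and -0.46.

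Among factors that act on p27 and p21 levels, 18 of 19 genes were measured, with medians of -0.11 and 0.03, and 1 of the 18 was 2-fold or more higher in each line, where 3.42% of all kept genes were in HT29 and 0.908% in Colo205. KLF4, a transcription factor known to activate CDKN1A, read 9.95 and 11.04 in the HT29 pair and 9.50 and 9.84 in the Colo205 pair, or 1.09 and 0.34 higher. FOXO1, a forkhead factor known to activate CDKN1B, read 8.78 and 7.92 in HT29 and 7.33 and 8.59 in Colo205, a difference of -0.87 in the first and 1.26 in the second. CDKN1B was lower in both, in the direction of FOXO1 in HT29 and opposite to it in Colo205. Whether FOXO1 acts on CDKN1B in these lines was not tested. SKP2, which marks p27 for breakdown, had the lowest mean of the list, -0.48, with differences of -0.49 and -0.48. Over its 3 probe sets the HT29 difference ran from -1.29 to -0.20 and that of Colo205 from -0.64 to 0.41.

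Genes that E2F factors switch on for DNA replication were mostly lower in resistant HT29, by less than 2-fold. Of 17 measured of 18, 13 lay below 0 in HT29, with a median of -0.40, and 7 did so in Colo205, with a median of 0.03; over all kept genes 51.4% and 52.4% lay below 0. None of the 17 was 2-fold apart in either line. UNG, a uracil-removing repair enzyme, was at -0.84 and -0.36, and RRM2, a subunit of ribonucleotide reductase, at 0.19 and 0.14. The 14 mitotic genes had medians of 0.09 in both lines, with 0 at 2-fold. MKI67, the Ki-67 proliferation marker, was at 0.32 and 0.59 and FOXM1, which drives mitotic gene transcription, at -0.18 and -0.65. Over all lists 0 genes passed the adjusted threshold in limma, as 0 did over all kept genes.

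**Figure D5:**
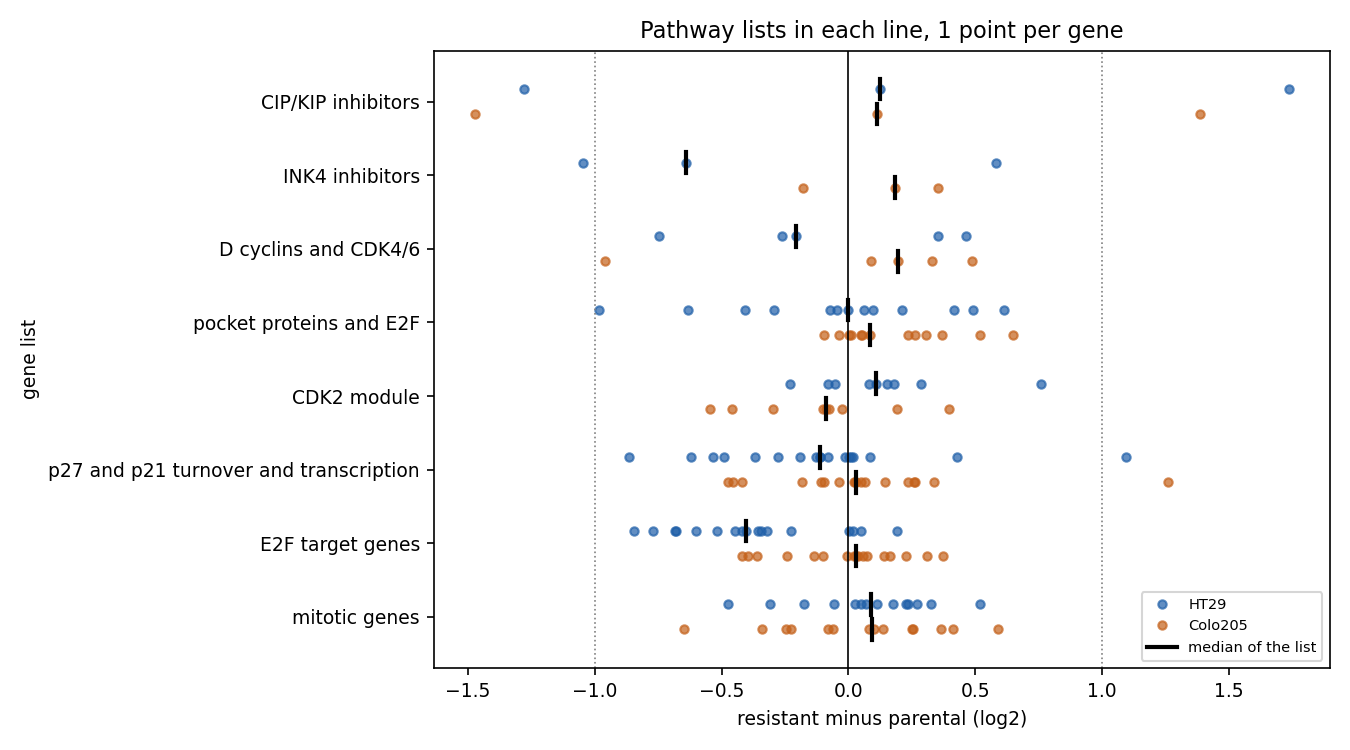
Resistant minus parental difference (log2) of every measured gene of the 8 lists, 1 point per gene, HT29 in blue and Colo205 in orange, with the list median as a black bar and dotted lines at 2-fold. The E2F target genes sit mainly left of 0 in HT29, with a median of -0.40, and around 0 in Colo205, while the CIP/KIP genes spread past the dotted lines on both sides.

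Genes with the pattern most like that of CDKN1B were sought as those with the smallest root mean square distance between their 4 values and its own, each centred on its mean, a description over 4 arrays. They were TNFSF13, a cytokine gene, with a distance of 0.17 and differences of -1.14 and -1.08, STXBP6, a regulator of vesicle fusion, with 0.18 and differences of -0.95 and -1.24, and ID2, an inhibitor of helix-loop-helix factors, with 0.19 and differences of -1.51 and -0.98. For CDKN1A they were MOB3C at 0.03, MOSPD1 at 0.04 and FOSL1, an AP-1 subunit, at 0.08, with HT29 differences of 1.81, 1.82 and 1.90 and Colo205 differences of 0.10, 0.13 and 0.27.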

How the data were processed

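Expression had been measured on 4 Affymetrix arrays. The deposited table holds log2 probe set values that the authors summarised and normalised. That they are log2 was judged from their range, 2.51 to 14.88. Per the submitters' processing notes MAS5 and RMA were used, with no role or version, and the background step is not stated there. The number of arrays limits the precision.

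Of the probe sets, 41091 named 1 gene through the supplied platform annotation, 1801 several and 11777 none; the latter 2 kinds and 62 control probe sets, some of them among the 11777, were left out. RefSeq (GRCh38.p14) held 41037 of their gene identifiers and changed 0 symbols. It also gave gene order and start regions. The probe set with the highest mean stood for a gene, and genes whose highest value reached the median of all values were kept (13651 of 19775).

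Resistant and parental arrays were compared across both lines with limma 3.58.1 in R 4.3.3 and Benjamini-Hochberg adjustment. Each derivative was paired with the parent of its own line, as the labels' cell line names give it, by a block. This leaves 1 residual degree of freedom, joined to 2.54 from all genes. The p-values thus rest on the spread between these 2 pairs and on a variance drawn from all genes. Nothing says that cultures were independent, so they do not measure the spread between independent cultures. The procedure was tested on simulated arrays.

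The genes and lists were chosen with earlier results of these data known. Named genes were all members, the list genes 2-fold apart in either line, the list genes with the highest and lowest mean difference, and the 3 genes most like CDKN1B and CDKN1A. TNFSF13, STXBP6, ID2, MOB3C, MOSPD1 and FOSL1 came from that last rule. CDKN2D and the marker genes were named after their values were seen. Alternatives concerned the probe set, the filter, the scaling, the block, the variance model and each line left out.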

Additional observations from a re-analysis of the deposited data

Results flagged for a closer look

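In 6 of the group's genes and the named pathway genes, the HT29 and the Colo205 pair moved in opposite directions. Of these 6, 3 were among the 9 measured genes of the group. Over all kept genes 51.4% lay below 0 in HT29, 52.4% in Colo205 and 30.1% in both, so opposite directions were common. The share with opposite directions over all kept genes was not counted, so the number 6 is not a result about these genes. With 1 pair a line, this difference between them was not tested. Taken as the HT29 difference minus the Colo205 difference, it was -2.13 for FOXO1, -1.23 for CDKN2A and -1.23 for CDK6. It was -0.99 for RBL2, 0.54 for CDK2 and -0.35 for CCND1. The Colo205 differences of CDKN2A (0.18), CCND1 (0.09) and RBL2 (0.01) lay under the probe set scatter of 0.30, as did the HT29 differences of CDK2 (0.08) and CCND1 (-0.26), so the direction of these values is not settled.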

How the results depend on the processing

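Under every alternative for probe set choice, filter, scaling, block and variance model, limma called 0 genes and 0 of the genes described here. Without the replicate block, 131 genes had an unadjusted p under 0.05 and CDKN1B an adjusted p of 1; over the other alternatives its adjusted p ran from 0.457 to 0.715. Counting each of the 17 probe sets past the filter on its own, 7 were 2-fold or more apart in HT29, against 3 genes. Of all 25282 probe sets counted so, 797 were 2-fold or more higher and 467 lower in HT29. CDKN2A and CDK6 each gave several of the 7, so they are not separate genes. The direction of 1 of them, 235287_at, followed from the filter. With arrays centred on their medians, 2 genes were 2-fold or more apart in Colo205 (CDKN1B and CDK4), against 1. RBL2 then became the 1 gene of its list past 2-fold in HT29. Of all 13637 genes in that setting, 117 were 2-fold or more higher and 377 lower in Colo205. In HT29 it was 431 higher and 259 lower. The mean difference of CDK6 was 0.013 with the median of its probe sets, in place of -0.13. Leaving out each line in turn leaves the other line's difference with no test, from -1.47 to -1.28 for CDKN1B, from 0.11 to 1.74 for CDKN1A, from -1.05 to 0.18 for CDKN2A, from -0.26 to 0.087 for CCND1, from -0.96 to -0.21 for CDK4 and from -0.75 to 0.49 for CDK6. The difference of CCND3 in HT29 was 0.15 with the median of its probe sets, in place of 0.46.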
